A study of Mus musculus with 4 samples.

Results

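The 10 genes described here are the core activators, periods and cryptochromes of the circadian clock, with 1 kinase of the periods. They are *Arntl* (the listed name of *Bmal1*), *Arntl2*, *Clock*, *Npas2*, *Per1*, *Per2*, *Per3*, *Cry1*, *Cry2* and *Csnk1d*. The rule takes them by gene symbol and uses no measured value, though it was drawn up with earlier results of these data known. All 10 were among the 16015 genes listed in RNA sequencing of mouse colonic epithelium.

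The control group was 2 *Bmal1* fl/fl mice, which the labels call WT, and the other group was 2 *Villin-CreERT2;Bmal1* fl/fl mice labelled *Bmal1* cKO. *Villin-CreERT2* is a Cre recombinase that tamoxifen switches on in the epithelium of the intestine, so the design removes *Bmal1* from epithelial cells and from no other cell of the colon. The mice were littermates on a C57BL/6 background, aged 2 to 4 months, and the study injected tamoxifen on 5 consecutive days. All 4 mice received dextran sulfate sodium (DSS), a polysaccharide that injures the colonic epithelium, as 3% of the drinking water for 5 days and then plain water for 2 days. Colonic epithelial cells were isolated on day 7. No group without DSS was analysed here, and the time of day at which the 4 mice were sampled is not given in the sources used here.

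The mammalian clock is a feedback loop of transcription. BMAL1 pairs with CLOCK, or with the CLOCK relative NPAS2, and the pair binds E-box sequences and activates *Per* and *Cry* genes. PER and CRY proteins then enter the nucleus and repress that pair, and the kinase CK1δ, the product of *Csnk1d*, phosphorylates PER proteins and times their decay. A second loop runs through the REV-ERB repressors and ROR activators, which act on *Bmal1* itself through sequences called ROREs. In the intestinal epithelium, as in other peripheral tissues, many of these transcripts rise and fall over the day, so their level at 1 time can be a point on a curve.

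Values are normalized counts, the reads on a gene divided by a size factor of the library, so 1 read was worth between 0.845 and 1.35 normalized counts. The libraries held between 10312791 and 14156639 reads on listed genes. Differences were tested on log2(normalized count + 1) with limma and Benjamini-Hochberg adjustment over 13983 genes whose mean reached 10, two-sided, and a gene was called at an adjusted p under 0.05. A log2 fold change is the mean of the libraries labelled *Bmal1* cKO minus that of the controls. The libraries differed widely, with 29.0% of the genes tested called higher and 27.7% called lower in the libraries labelled *Bmal1* cKO. The fold change also followed GC content across genes (Spearman's rho = -0.61, as a description, since genes are not independent), so each member is also given after GC content and gene length were regressed out of every library by loess. After the correction 18.4% of the genes were called higher and 17.6% lower. For the background of a single gene, the genes tested were also put in 10 GC classes of equal size. The part that the bases of a gene play in its difference was not tested.

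Of the 10 members, 5 were called higher (*Clock*, *Npas2*, *Per2*, *Cry1* and *Csnk1d*), 1 was called lower (*Per1*), and 4 were not called (*Arntl*, *Arntl2*, *Per3* and *Cry2*). With the correction 6 were called higher, *Cry2* being added, and *Per1* alone was called lower. The groups did not overlap in any of the 10 members, a state that 82.1% of the genes tested shared. The median log2 fold change of the members was 0.55, beside -0.04 over all genes tested, and the corrected medians were 0.68 and -0.01.

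**Figure D1:**
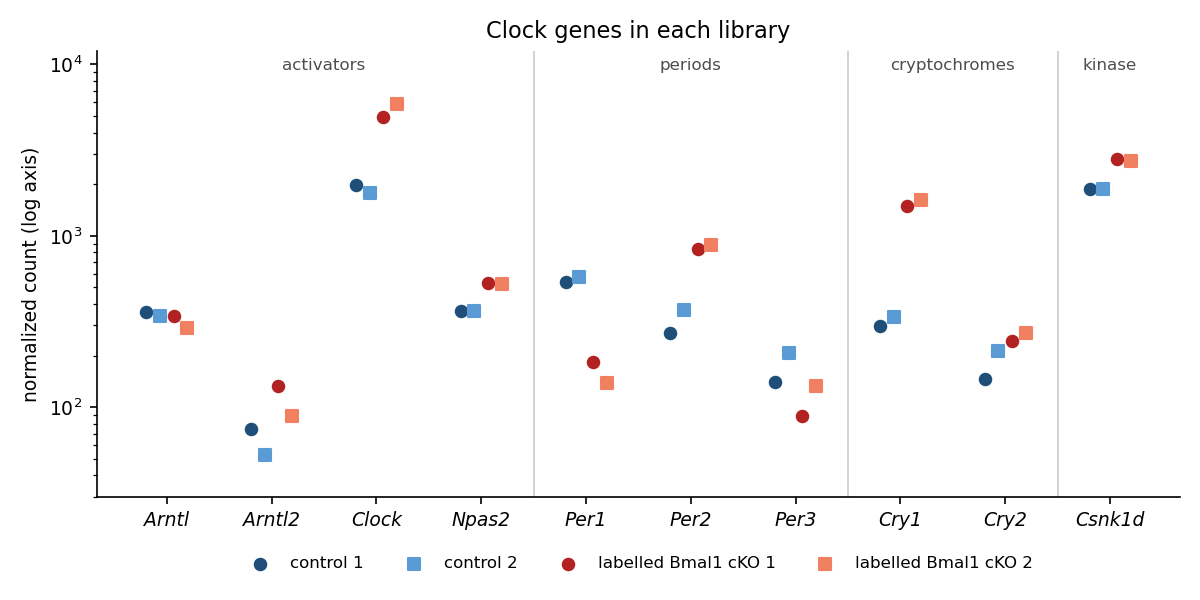
Normalized counts of the 10 members (log axis) in each of the 4 libraries, controls in blue and libraries labelled *Bmal1* cKO in red, with 1 point per library. *Cry1* rose from 297 and 335 to 1501 and 1623, *Per1* fell from 536 and 579 to 184 and 138, and the *Arntl* points lay close together at 289 to 358.

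*Arntl* encodes BMAL1, the partner that the core activator pairs share, and is the gene the design targets (ENSMUSG00000055116, chromosome 7 of GRCm38, 113207465 to 113314126, plus strand). It had 358 and 342 normalized counts in the controls and 341 and 289 in the libraries labelled *Bmal1* cKO, which rest on 424, 404, 332 and 214 reads. Both labelled libraries lay below both controls, but the second control and the first labelled library were nearly equal. The log2 fold change was -0.16 (SE 0.14, 95% interval -0.52 to 0.21, limma adjusted p = 0.389), while the median gene of its GC class stood at 0.17. After the correction the log2 fold change of *Arntl* was -0.40 (SE 0.14, 95% interval -0.75 to -0.04, limma adjusted p = 0.0771). Over 16 alternative ways of processing it stayed negative and was never called, with values from -0.40 to -0.04. The value is a sum over the whole gene, and the sources used here do not say which exons the loxP sites flank, so reads from exons that remain after recombination cannot be separated. The level by itself therefore does not check the labels, and every direction below compares libraries by label. *Nr1d1*, a gene that BMAL1 is known to drive, was lower in the libraries labelled *Bmal1* cKO, and its values are given with the ratios below. Of the *Per* and *Cry* genes, which the BMAL1 pair also activates, *Per1* was called lower and *Per2* and *Cry1* higher. None of these genes was tested as a check of the labels. The study also measured *Bmal1* RNA by RT-qPCR in colonic crypts of control and cKO mice, and BMAL1 protein by immunoblot and on sections. Those measurements were not analysed here.

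The mouse *Arntl* promoter was searched because its product heads the loop and the second loop acts on it. Promoter windows of RefSeq (GRCm38.p6) run from 250 bases before an annotated start to 50 bases after it, and 8 of the 10 members had 12 windows between them. *Per2* and *Csnk1d* had no entry. A set of 5 motifs were looked for on both strands, and positions run from the annotated start to the first base of the match. The RORE core was searched in a loose form, TNGGTCA, whose second base was left free where the usual core has A or G. This loose form was found in 11.0% of all 32851 windows and in 3 of the 8 members, *Arntl*, *Per3* and *Cry2*. The 2 *Arntl* windows overlap and share a pair of matches, TTGGTCA at -200 and TCGGTCA at -181 in window 1. Window 2 held a further match at 30, the only match among the members with A or G as its second base. It is printed here with its flanks, the match in capitals, as it lies just after a start.
*Arntl*, chr7:113207530-113207559, plus strand: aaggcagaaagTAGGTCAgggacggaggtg

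*Arntl2* encodes BMAL2, a relative of BMAL1 that can also pair with CLOCK (ENSMUSG00000040187, chromosome 6, 146796055 to 146833529). It was the scarcest activator, at 74.3 and 52.5 normalized counts in the controls and 133 and 89.2 in the libraries labelled *Bmal1* cKO. Both labelled libraries were above both controls, but mice within each group differed widely. Its log2 fold change was 0.79 (SE 0.33, interval -0.04 to 1.62, limma adjusted p = 0.0898). After the correction it was 0.05 (SE 0.33, adjusted p = 0.918), and the median gene of its GC class stood at 0.79. *Arntl2* was not called in any of the 16 alternatives, and without labelled library 1 its log2 fold change was 0.51.

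*Clock* encodes the partner of BMAL1 (ENSMUSG00000029238, chromosome 5, 76209868 to 76304792). It had 1974 and 1785 normalized counts in the controls and 4957 and 5877 in the libraries labelled *Bmal1* cKO, a gap far wider than the spread within either group. The mean was 2.88-fold higher (log2 fold change 1.52, SE 0.12, limma adjusted p = 6.37e-04). *Clock* lies in the GC class with the least GC, where the median log2 fold change was 1.13 and 71.2% of genes were called higher. Its corrected log2 fold change was 0.57 (SE 0.11, adjusted p = 0.0169). The direction and the call held in all 16 alternatives.

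*Npas2* encodes the CLOCK relative that can take its place beside BMAL1 (ENSMUSG00000026077, chromosome 1, 39193731 to 39363236). It had 363 and 366 normalized counts in the controls and 534 and 520 in the libraries labelled *Bmal1* cKO, so each group was tight and the groups were well apart. The mean was 1.45-fold higher (log2 fold change 0.53, SE 0.11, limma adjusted p = 0.0110). Its GC class moved the other way, with a median of -0.32 and 10.1% of genes called higher. The corrected log2 fold change was 0.79 (SE 0.11, adjusted p = 0.00675). The call was lost when libraries were scaled by their totals (log2 fold change 0.30, adjusted p = 0.0663) and when any 1 library was left out, with log2 fold changes of 0.51 to 0.55 and adjusted p between 0.0506 and 0.0593.

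The periods are the PER side of the repressor. They did not move as one: *Per1* was called lower, *Per2* was called higher and *Per3* was not called. *Per1* (ENSMUSG00000020893, chromosome 11, 69095217 to 69109960) measured 536 and 579 normalized counts in the controls and 184 and 138 in the libraries labelled *Bmal1* cKO. Both labelled libraries were well below both controls, and the mean was 3.46-fold lower (log2 fold change -1.80, SE 0.18, limma adjusted p = 0.00110). *Per1* lies in the GC class with the most GC, where the median was -1.35 and 75.6% of genes were called lower. Its corrected log2 fold change was -0.58 (SE 0.15, adjusted p = 0.0370), and with a replicate block beside the correction it was no longer called (adjusted p = 0.0628).

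*Per2* (ENSMUSG00000055866, chromosome 1, 91415982 to 91459324) measured 269 and 369 normalized counts in the controls and 839 and 881 in the libraries labelled *Bmal1* cKO. Even the higher control was under the lower labelled library by a wide margin, and the mean was 2.69-fold higher (log2 fold change 1.44, SE 0.17, limma adjusted p = 0.00177). *Per2* is rich in GC too, and 5.72% of the genes in its GC class were called higher while 42.5% were called lower. After the correction its log2 fold change was 1.97 (SE 0.17, adjusted p = 0.00334). The call held in all 16 alternatives, from 1.22 to 1.97.

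*Per3*, the period whose loss is known to disturb the loop least (ENSMUSG00000028957, chromosome 4, 151003652 to 151044665), measured 141 and 208 normalized counts in the controls and 89.5 and 134 in the libraries labelled *Bmal1* cKO. The groups came close to each other, since the lower control and the higher labelled library nearly touched. Its log2 fold change was -0.64 (SE 0.30, interval -1.41 to 0.13, limma adjusted p = 0.125), with -0.35 after the correction (adjusted p = 0.405). It was negative in all 16 alternatives and called in none of them, but its size rested on single libraries, at -0.36 without control 2, -0.35 without labelled library 1 and -0.93 without labelled library 2.

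The promoters of the periods are shown because an E-box is where BMAL1 with CLOCK binds and a D-box is where DBP, an output factor of the clock, binds. The E-box was searched as CACGTG, found in 7.15% of all windows, and the D-box as TTATGNAA, found in 3.38%. *Per1* held an E-box at -166 and a D-box at -24 of its first window. *Per3* held a pair of D-boxes at -205 and -158 and, at -118, TTGGTCA on the reverse strand, which matches only the loose TNGGTCA. Capitals mark these matches in the 250 bases before each start. A match is a description of letters and was not tested for binding.
*Per1*, chr11:69098699-69098948, plus strand: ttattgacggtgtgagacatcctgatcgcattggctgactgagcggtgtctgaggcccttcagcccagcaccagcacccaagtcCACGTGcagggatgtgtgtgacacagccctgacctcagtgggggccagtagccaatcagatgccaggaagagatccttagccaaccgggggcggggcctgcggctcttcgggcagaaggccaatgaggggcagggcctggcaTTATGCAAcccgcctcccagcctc
*Per3*, chr4:151044666-151044915, minus strand: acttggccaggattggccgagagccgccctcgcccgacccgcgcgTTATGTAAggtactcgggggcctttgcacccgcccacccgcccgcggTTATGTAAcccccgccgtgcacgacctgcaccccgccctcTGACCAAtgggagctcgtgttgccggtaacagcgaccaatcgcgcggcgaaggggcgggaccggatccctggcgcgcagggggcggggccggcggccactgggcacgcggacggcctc

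The cryptochromes are the CRY side of the repressor and the part that binds BMAL1 and CLOCK most directly. *Cry1* showed the largest log2 fold change of the 10 members. *Cry1* (ENSMUSG00000020038, chromosome 10, 85131700 to 85185064) measured 297 and 335 normalized counts in the controls and 1501 and 1623 in the libraries labelled *Bmal1* cKO. The groups lay far apart with little spread within each, and the mean was 4.94-fold higher (log2 fold change 2.30, SE 0.11, limma adjusted p = 5.33e-04). Its GC class had a median of -0.32, and 10.1% of its genes were called higher. Corrected, the log2 fold change was 2.50 (SE 0.11, adjusted p = 0.00279), and the call held in all 16 alternatives, from 2.08 to 2.50.

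*Cry2* (ENSMUSG00000068742, chromosome 2, 92403646 to 92434043) measured 147 and 212 normalized counts in the controls and 243 and 270.3 in the libraries labelled *Bmal1* cKO. The labelled libraries were higher, but the 2 controls were further apart than the gap between the groups. Its log2 fold change was 0.54 (SE 0.22, interval -0.03 to 1.10, limma adjusted p = 0.0903). Its GC class had a median of -0.82, and the corrected log2 fold change was 1.23 (SE 0.22, adjusted p = 0.0139). It was called in the 2 corrected fits and in none of the other alternatives, and without control 1 its log2 fold change was 0.27. Its exons share 295 bases with *D930015M05Rik* on the opposite strand, which had 3.38 and 2.54 normalized counts in the controls and 10.3 and 18.9 in the labelled libraries, and the strand used for counting is not given in the sources used here.

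The promoters of the cryptochromes are shown to set the gene with the widest difference beside its close relative. *Cry1* held an E-box at -60 and, at -79, an E-prime-box, searched as CACGTT and found in 4.68% of all windows, here on the reverse strand. *Cry2* held a reversed E-prime-box at -166 and, at -133, TTGGTCA on the reverse strand, which matches only the loose TNGGTCA. No E-box was found in this *Cry2* window. The cyclic AMP response element TGACGTCA, in 1.79% of all windows, was in no window of the 8 members. *Clock*, *Npas2* and *Arntl2* held none of the 5 motifs in their windows.
*Cry1*, chr10:85185055-85185304, minus strand: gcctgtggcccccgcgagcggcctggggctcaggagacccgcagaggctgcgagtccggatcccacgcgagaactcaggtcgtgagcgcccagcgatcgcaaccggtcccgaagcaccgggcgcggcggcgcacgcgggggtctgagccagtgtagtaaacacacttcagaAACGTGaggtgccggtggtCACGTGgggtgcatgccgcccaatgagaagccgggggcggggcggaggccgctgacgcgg
*Cry2*, chr2:92434070-92434319, minus strand: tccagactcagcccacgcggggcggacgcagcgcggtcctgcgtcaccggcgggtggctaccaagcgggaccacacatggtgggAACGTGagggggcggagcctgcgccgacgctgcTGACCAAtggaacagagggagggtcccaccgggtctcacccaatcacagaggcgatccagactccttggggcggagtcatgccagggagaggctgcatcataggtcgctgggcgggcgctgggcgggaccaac

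*Csnk1d* encodes CK1δ (ENSMUSG00000025162, chromosome 11, 120961749 to 120991330). It had 1865 and 1884 normalized counts in the controls and 2794 and 2733 in the libraries labelled *Bmal1* cKO, with a small spread within each group. The mean was 1.47-fold higher (log2 fold change 0.56, SE 0.08, limma adjusted p = 0.00352), in a GC class where 5.72% were called higher. After the correction the log2 fold change was 1.06 (SE 0.08, adjusted p = 0.00309). The call held in all 16 alternatives, at 0.33 or above. Its exons share 63 bases with *Gm28192* on the opposite strand, which had between 43.2 and 57.6 normalized counts.

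**Figure D2:**
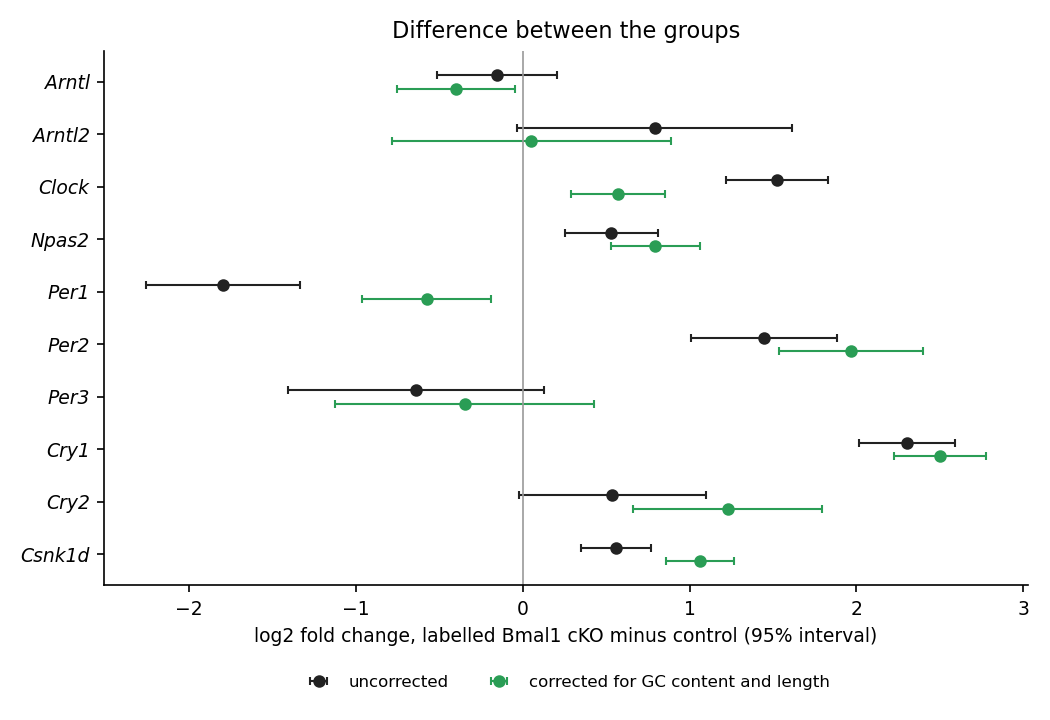
Log2 fold change of each member, libraries labelled *Bmal1* cKO minus control, with the 95% interval from limma, before (black) and after (green) the correction for GC content and length. *Clock* moved from 1.52 to 0.57 and *Per1* from -1.80 to -0.58, towards 0, while *Per2*, *Cry1*, *Cry2* and *Csnk1d* moved away from it.

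**Figure D3:**
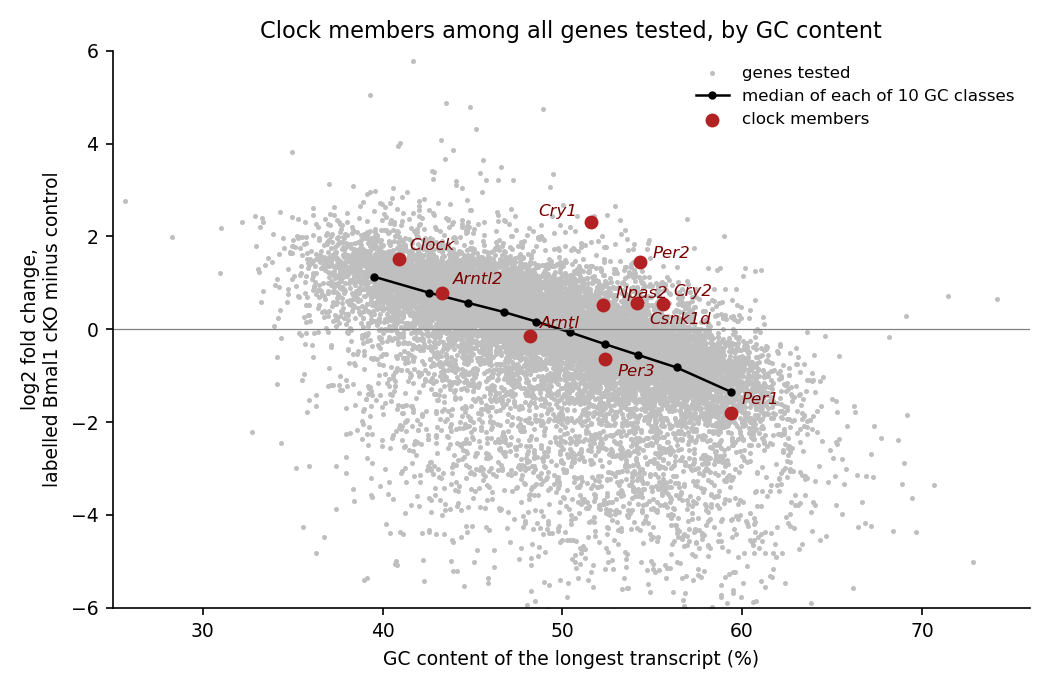
Log2 fold change of the genes tested (grey; 29 points lie outside the axis) against the GC percent of the longest transcript, with the median of each of 10 GC classes (black) and the 10 members (red). *Cry1*, *Per2*, *Npas2*, *Csnk1d* and *Cry2* and, by less, *Clock* lay above the median of their GC class. *Clock* was in the class with the least GC and *Per1* in the class with the most.

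Levels can be compared between genes only per length, so normalized counts, not corrected for GC content, were divided by the exon length in kilobases. In the controls *Csnk1d* was the highest, at 373 ± 2.60 normalized counts per kb (SD, n = 2), followed by *Clock* at 137 ± 9.72, *Per1* at 98.9 ± 5.39 and *Cry1* at 94.6 ± 8.23. *Npas2* at 76.1 ± 0.39, *Per2* at 54.5 ± 12.1 and *Arntl* at 46.6 ± 1.50 came next. *Cry2* at 28.4 ± 7.25, *Per3* at 18.1 ± 4.89 and *Arntl2* at 11.1 ± 2.71 were the lowest. The ranges of *Per1* and *Cry1* overlapped, as did those of *Per2* and *Arntl*, and the other neighbours in this order did not overlap.

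The order per kb was another one in the libraries labelled *Bmal1* cKO. *Csnk1d* was still the highest at 550.3 ± 8.53 normalized counts per kb (SD, n = 2), but *Cry1* at 468 ± 26.0 now stood above *Clock* at 395 ± 47.4. *Per2* at 147 ± 5.07 and *Npas2* at 110.02 ± 1.98 followed. *Arntl* at 41.9 ± 4.91 and *Cry2* at 40.6 ± 3.09 overlapped in their ranges. *Per1* dropped from the third place to the eighth, at 28.6 ± 5.81, and *Arntl2* at 19.5 ± 5.40 and *Per3* at 11.6 ± 3.26 closed the order.

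Ratios between members within a library do not depend on how the libraries were scaled, so several were taken. They do depend on the GC and length correction, so the difference of their group means on the log2 scale is given before and after it. With 2 mice in each group the smallest p of an exact permutation test is 0.333, and no test is given. The ratio of *Cry1* to *Cry2* was 2.02 and 1.58 in the controls and 6.18 and 6.01 in the libraries labelled *Bmal1* cKO. That of *Clock* to *Npas2* was 5.43 and 4.88 in the controls and 9.29 and 11.3 in the labelled libraries. Before the correction the labelled libraries lay above the controls in both pairs of relatives, with no overlap. The difference for *Cry1* to *Cry2* was 1.77 before and 1.27 after the correction. For *Clock* to *Npas2* it turned from 0.99 to -0.23, so the corrected ratio was lower in the labelled libraries, and no direction is drawn for this pair.

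*Arntl* served as the common numerator for the other ratios, as the activator that the repressors answer to. Its ratio to *Per1* was 0.669 and 0.592 in the controls and 1.85 and 2.10 in the labelled libraries, a log2 difference of 1.65 that was 0.18 after the correction. Its ratio to *Per2* went the other way, from 1.33 and 0.927 to 0.407 and 0.328, a difference of -1.60 that was -2.37 after the correction. In log2 terms the ratio to *Per3* was 1.34 and 0.72 in the controls and 1.93 and 1.11 in the labelled libraries, and these overlapped (difference 0.49, or -0.045 after the correction). Its ratio to *Arntl2* was 4.82 and 6.52 in the controls and 2.57 and 3.24 in the labelled libraries, without overlap, with a difference of -0.96 that was -0.46 after the correction. The correction thus narrowed the ratios to *Per1* and *Arntl2* and widened that to *Per2*.

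**Figure D4:**
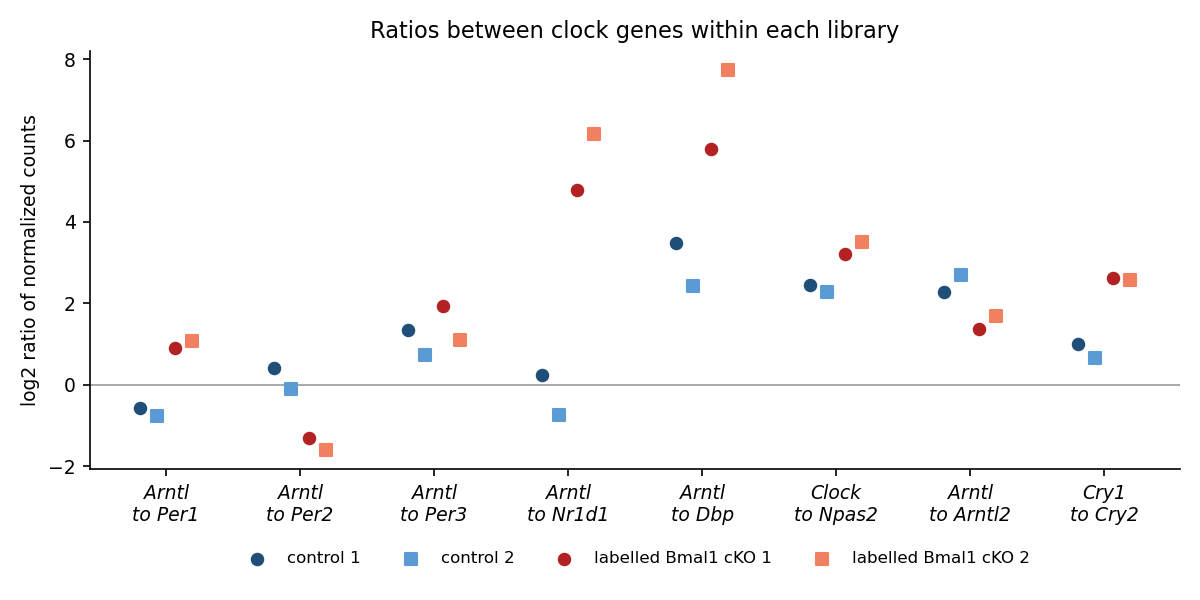
Log2 ratio of normalized counts within each library for 8 pairs of clock genes before the GC and length correction, with 1 point per library. *Cry1* to *Cry2*, *Clock* to *Npas2* and the ratios of *Arntl* to *Per1*, *Nr1d1* and *Dbp* were higher in both labelled libraries than in both controls, those of *Arntl* to *Per2* and *Arntl2* were lower, and that of *Arntl* to *Per3* overlapped. After the correction the difference for *Clock* to *Npas2* turned to -0.23 and that for *Arntl* to *Per1* shrank to 0.18.

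The ratios that differed most between the groups were those to *Nr1d1* and *Dbp*, which BMAL1 is known to drive. The BMAL1 pair also activates *Per* and *Cry* genes, of which *Per1* was called lower and *Per2* and *Cry1* higher. *Nr1d1*, which encodes the repressor REV-ERBα of the second loop, had 302 and 577 normalized counts in the controls and 12.3 and 4.06 in the libraries labelled *Bmal1* cKO, the latter from 12 and 3 reads. The ratio of *Arntl* to *Nr1d1* was 1.18 and 0.593 in the controls and 27.7 and 71.3 in the labelled libraries, where the exact binomial 95% intervals ran from 15.6 to 54.1 and from 24.1 to 349. *Dbp* had 32.1 and 63.5 normalized counts in the controls and 6.17 and 1.35 in the labelled libraries, or 6 and 1 reads. The ratio of *Arntl* to *Dbp* was 11.2 and 5.39 in the controls and 55.3 and 214 in the labelled libraries, with intervals from 25.2 to 152 and from 38.0 to 8492. These intervals cover counting error only, and reads were not counted by molecule. The log2 difference between the groups was 5.73 for the ratio to *Nr1d1* and 3.81 for that to *Dbp*, and 4.62 and 2.04 after the correction. So the *Arntl* count, before the correction, stood near its control level in libraries where *Nr1d1* and *Dbp* were at a few reads.

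The wider pathway was described by 3 lists of clock genes. Their counts stand beside 29.0% of all genes tested called higher and 27.7% lower, or 18.4% and 17.6% after the correction. No list was tested as a set. The list of the second loop and output factors has 17 genes, of which 15 were tested and *Rorb* and *Hlf* were not listed. Of the 15, 7 were called lower (*Nr1d1*, *Nr1d2*, *Rora*, *Dbp*, *Nfil3*, *Bhlhe40* and *Tspan4*) and 4 higher, *Usp2*, *Wee1* and *Nampt* among them, with a median log2 fold change of -1.12. After the correction 5 were lower and 3 higher, with a median of -0.69. *Dbp*, at a log2 fold change of -3.49 (limma adjusted p = 0.0153), lost its call with the correction (-1.96, adjusted p = 0.103), and so did *Nampt* (1.25 to 0.25, adjusted p = 0.331) and *Tspan4*. *Nr1d1* had a log2 fold change of -5.67 (SE 0.58, limma adjusted p = 0.00112).

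On the higher side of this list, *Usp2*, a deubiquitinase whose transcript cycles in many tissues, had 50.7 and 70.3 normalized counts in the controls and 248 and 284 in the libraries labelled *Bmal1* cKO (log2 fold change 2.13, SE 0.25, limma adjusted p = 0.00155). It was also called after the correction. *Tspan4* had 292 and 94.9 in the controls and 59.7 and 40.6 in the labelled libraries, and its call (adjusted p = 0.0448) was lost after the correction (adjusted p = 0.367).

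Of the 16 modifiers of PER and CRY proteins, 15 were tested (*Fbxl21* was not), 8 were called higher and 2 lower, with a median log2 fold change of 0.51. After the correction 3 were higher and 4 lower, beside 18.4% and 17.6% of all genes tested, and the median was 0.05. *Csnk1e*, the close relative of *Csnk1d*, had 240 and 224 normalized counts in the controls and 98.7 and 87.9 in the labelled libraries (log2 fold change -1.31, SE 0.19, limma adjusted p = 0.00306). That fall was not called after the correction (-0.51, adjusted p = 0.0762), so of the 2 kinases *Csnk1d* alone was called in both fits.

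*Ppp1cb*, a catalytic subunit of protein phosphatase 1, which removes phosphate from PER proteins, had 3452 and 3568 normalized counts in the controls and 14024 and 15266 in the libraries labelled *Bmal1* cKO. Its log2 fold change of 2.06 (SE 0.10, limma adjusted p = 5.33e-04) was 1.07 after the correction (adjusted p = 0.00347). *Csnk2b*, the regulatory subunit of casein kinase 2, had 1152 and 1142 in the controls and 478 and 533 in the labelled libraries. It was called lower in both fits, at -1.18 (adjusted p = 7.84e-04) and -0.76 (adjusted p = 0.00641).

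All 16 coregulators of the clock complexes were tested, and 9 were called higher and 0 lower (5 and 3 when libraries were scaled by their totals), with a median log2 fold change of 0.39. edgeR and DESeq2 also called 0 lower, and at an unadjusted limma p under 0.05 the count was 0. After the correction 5 were higher and 1, *Nono*, was lower, with a median of 0.21. *Sirt1*, a deacetylase that acts on BMAL1 and PER2, had 312 and 317 normalized counts in the controls and 741 and 733 in the libraries labelled *Bmal1* cKO (log2 fold change 1.23, SE 0.11, limma adjusted p = 7.50e-04). The acetyltransferase gene *Kat2b* had 728 and 581 in the controls and 1357 and 1315 in the labelled libraries (1.04, SE 0.13, adjusted p = 0.00220). Both were also called after the correction.

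*Kdm5a*, whose product binds CLOCK and BMAL1, had 986 and 1023 normalized counts in the controls and 2070 and 1986 in the libraries labelled *Bmal1* cKO. The helicase gene *Ddx5* had 12027 and 11609 in the controls and 20762 and 22804 in the labelled libraries. Their log2 fold changes were 1.01 and 0.88 (limma adjusted p = 7.48e-04 and 0.00288), but neither was called after the correction (adjusted p = 0.0607 and 0.396). Of the 46 pathway genes tested, those whose centred log2 values over the 4 libraries lay closest to those of *Arntl* were *Crebbp* (Euclidean distance 0.18), *Nono* (0.19) and *Wdr5* (0.29).

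**Figure D5:**
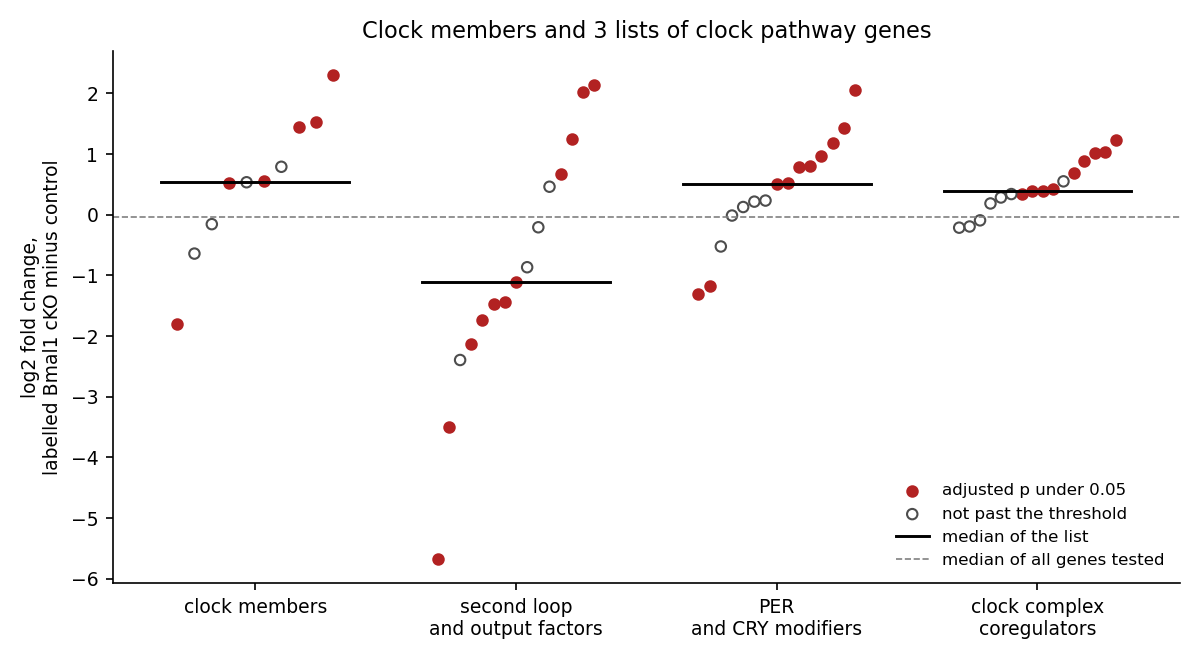
Log2 fold change of each gene tested in the 3 pathway lists and of the 10 members, libraries labelled *Bmal1* cKO minus control, with filled points for called genes, a bar at the median of each list and a dashed line at the median of all genes tested. Most coregulators lay above 0, with a median of 0.39, while the second loop and output factors spread from *Nr1d1* at -5.67 to *Usp2* at 2.13.

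Markers of other cell types differed between the groups. Of 20 leukocyte markers tested, 16 were called lower and 0 higher by limma (0 higher at an unadjusted p under 0.05), and their summed normalized count was 19852 and 28596 in the controls and 4330 and 4189 in the libraries labelled *Bmal1* cKO. A few genes carried these sums: *Ly6g* gave 2918 and 2549 in the labelled libraries, and *S100a8*, *S100a9* and *Ly6g* gave 8066, 7187 and 7474 in control 2. The general leukocyte marker *Ptprc* was at 1259 and 745 in the controls and 315 and 414 in the labelled libraries. Of 15 markers of stroma and vessels, 14 were lower and 0 higher (0 at an unadjusted p under 0.05), and their sum was 16939 and 4067 in the controls and 513 and 584 in the labelled libraries. None of the markers was at 0 in both labelled libraries, though *Des* was at 0 in the first and *Rgs5* in the second. In bulk samples, fewer cells of a type and less RNA per cell cannot be told apart. Epithelial markers, of which 5 of 12 were called lower and 1 higher, summed to between 153996 and 177564 in the controls and between 137828 and 144541 in the labelled libraries. *Epcam*, a defining marker of epithelium, was at 17455 and 21772 in the controls and 18588 and 20320 in the labelled libraries, so the labelled tissue was present in all 4. After the correction the epithelial markers turned to 0 lower and 5 higher, and their median log2 fold change went from -0.44 to 0.30, so no direction is drawn for them. The leukocyte markers were 15 lower and 0 higher after it, and those of stroma and vessels 13 and 0. The design leaves *Bmal1* intact in leukocytes and stroma, and the part of these cells in the values of the 10 members was not tested.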

How the data were processed

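RNA was sequenced from colonic epithelial cells of 2 control and 2 *Bmal1* cKO mice. The authors aligned reads to GRCm38 with STAR and normalized gene counts with DESeq2, and the counter and annotation release are not given in the sources used here. The labels and the methods name different library kits, so the strand of counting is unknown. Each library's deposited signal is its gene counts over a DESeq2 size factor. Columns of the authors' own comparison (log2 fold changes, a Wald score and p-values) were not used here. Whole reads were recovered for 100% of values (within 0.01 read). edgeR 4.0.16 on these reads called 3861 genes higher and 3812 lower.

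Fold changes are on the log2(value + 1) scale, on which low genes appear less changed than they are. Genes whose mean reached 10 were fitted with limma 3.58.1 (mean-variance trend, Benjamini-Hochberg, threshold 0.05). The correction subtracted from each library a loess fit (span 0.3) on GC content and length, and classes of GC content hold equal numbers of genes. Its robust form was taken after the least-squares form was seen to shift the median gene. GC content, lengths and coordinates came from GENCODE annotation of GRCm38, and 16008 of 16015 IDs matched. Within groups, libraries differed by more than sampling noise (chi-square per gene 46.2 and 11.1). The limma p-values rest only on the spread between these mice, which limma pools in part over genes. The steps were tested on simulated data.

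The members and gene lists were chosen with earlier results of these data known. Beyond the members, up to 4 genes of each pathway list were named, those called with a mean of at least 100 and the largest change, with *Dbp* for its ratio, the genes closest to *Arntl* and, in the counts, genes chosen after their values were seen. Some genes that this rule names are not reported here. The 16 alternatives were pseudocounts of 0.5 and 5, filters of none and 50, other scalings, edgeR, DESeq2 1.42.0, limma without the trend, the correction, a replicate block, both together, and leaving out each library.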

Additional observations from a re-analysis of the deposited data

How the results depend on the processing

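Over the 16 alternatives no member changed direction. The called members kept their calls except *Npas2* and *Per1*, and *Arntl2*, *Per3* and *Arntl* were never called. Scaling by library totals moved the median of all genes from -0.04 to -0.26 and the calls to 3091 higher and 4885 lower, beside 4059 and 3871, and gave 5 coregulators higher and 3 lower. With the GC and length correction, 2570 genes were higher and 2458 lower, with 3 modifiers higher and 4 lower and 5 coregulators higher and 1 lower. The same correction of the ratios, added after seeing the data, reversed the log2 difference of *Clock* to *Npas2* (0.99 to -0.23) and of *Arntl* to *Per3* (0.49 to -0.045). For *Arntl* it gave 0.18 to *Per1*, -2.37 to *Per2*, -0.46 to *Arntl2*, 4.62 to *Nr1d1* and 2.04 to *Dbp*, and for *Cry1* to *Cry2* 1.27. The cause was not tested.

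The deviations of mice with the same number from their group means had a correlation of -0.09 over genes. With 2 mice per group this cannot tell whether mice of the same number shared a day or a batch. A replicate block gave 3899 genes higher and 3789 lower, with 5 members higher and 1 lower. The replicate block with the correction gave 2177 higher and 2077 lower, 0 members lower, 2 modifiers higher, 5 coregulators higher and 4 second loop genes lower.

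Leaving out 1 library, with the lone one assumed to vary like the other group, gave 2654 to 3154 genes higher and 2205 to 2852 lower, 4 members higher and 1 lower, 4 to 5 second loop genes higher and 4 to 6 lower, 6 to 8 modifiers higher and 2 to 3 lower, and 4 to 7 coregulators higher and 0 lower. These fits have fewer samples. *Nr1d1* and *Dbp*, at a few reads in the labelled libraries, have imprecise ratios. With 2 mice per group, no outlier test was possible.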
